A study of Mus musculus with 16 samples.

Results

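The first day of retinoic acid was followed here in mouse embryonic stem cells labelled as lacking Suz12, across every gene with an RPKM of at least 1 either before treatment (0 h) or after 24 h. That rule kept 9460 of the 24452 genes in the table, 8672 of them protein-coding. RPKM is the number of reads on a gene scaled to the gene's length and to all reads of the column. Just inside the threshold lay Pla2g16, Trp53i13 and Txnrd3, at 1.00 RPKM in the higher column, and just outside it Pfkfb1, Enpp4 and Raet1d, with 0.999904 RPKM for Pfkfb1.

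The series holds 16 RNA samples in 8 groups of 2, from wild-type E14 cells (WT, genotype wild type) and from a line with genotype Suz12[-/-] (Suz12-KO), each at 0, 24, 48 and 72 h. At 0 h both lines were in serum medium with the cytokine LIF on gelatin. From then on they were in an equivalent medium that held 1 µM all-trans retinoic acid and no LIF, so the change of retinoid and the removal of LIF cannot be told apart. The 2 samples of a group were given as 1 pooled column, so no difference below has a replicate check or a p-value, and intervals cover counting error only. The sources used here do not say whether the Suz12-KO line is 1 clone or from which parent it was made.

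Retinoic acid, a vitamin A derivative, enters the nucleus and binds retinoic acid receptors, which sit on DNA with retinoid X receptors and switch from repressing to activating their targets. Among those targets are the enzymes that break the ligand down and the Hox genes, which set position along the body axis. The Suz12 protein is needed by Polycomb repressive complex 2 (PRC2) to place methyl groups on lysine 27 of histone H3, a mark that keeps developmental genes silent in embryonic stem cells. LIF acts through the kinase and transcription factor pair Jak1 and Stat3 to hold mouse embryonic stem cells in the naive pluripotent state.

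Direct repeats of the receptor half-site separated by 5 bases (DR5) are the classical retinoic acid response element, and the windows of 2 genes that were far higher at 24 h held one. The 250 bases before the RefSeq start (GRCm38.p6) are shown for Cyp26a1, at chr19:37697558-37697807 on the plus strand, and for Rarb, at chr14:16575477-16575726 on the minus strand, because they carry the repeat close to the start of genes that turned on. Capitals mark the repeat, which begins at position -32 from the start in Cyp26a1, where it reads along the opposite strand, and at position -53 in Rarb.
Cyp26a1: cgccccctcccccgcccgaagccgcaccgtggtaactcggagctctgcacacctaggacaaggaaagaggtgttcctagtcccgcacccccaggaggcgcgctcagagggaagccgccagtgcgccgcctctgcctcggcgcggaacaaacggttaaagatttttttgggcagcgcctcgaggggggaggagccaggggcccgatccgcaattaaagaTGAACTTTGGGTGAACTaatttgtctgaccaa
Rarb: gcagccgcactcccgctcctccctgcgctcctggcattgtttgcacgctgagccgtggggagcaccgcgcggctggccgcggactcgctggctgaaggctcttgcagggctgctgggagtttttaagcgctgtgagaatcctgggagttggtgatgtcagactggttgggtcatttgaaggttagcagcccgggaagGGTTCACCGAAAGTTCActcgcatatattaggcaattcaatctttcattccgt
The search took as half-site AGGTCA, the form AGTTCA, the form GGGTCA and the form GGTTCA, on either strand, in windows from 250 bases before to 50 after the start. Of 32851 such windows in the RefSeq table, 32 (0.0974%) held a DR5, 88 (0.268%) held the same repeat with a 2-base spacer (DR2) and 73 (0.222%) with a 1-base spacer (DR1). Windows were matched for 6903 of the 8672 kept protein-coding genes and for 418 of the 568 that were at least 2-fold higher. A DR5 was found in 4 kept genes, Cyp26a1, Rarb, Blvrb (log2 change 0.48) and Gm4631 (log2 change -0.63). A DR2 was found in 7 kept genes (0.101% of those matched), 5 of them within 2-fold and 2 higher, Casd1 and Ano1. A DR1 was found in 19 kept genes (0.275%), all of them within 2-fold. None of the 296 matched genes at least 2-fold lower held any of the 3 repeats. A match describes these letters only and is not a measured binding site.

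The labels were checked first. Suz12 was read at 2.59 RPKM (349 reads) at 0 h and 3.09 RPKM (403 reads) at 24 h in Suz12-KO cells, against 2.94 and 2.58 RPKM in WT cells. The gene-wide level therefore did not separate the lines, and since the deleted part of the gene is not given and a gene on the other strand overlaps it, these reads do not check the knock-out. Hprt, a purine salvage enzyme gene, stood at 30.1 and 34.7 RPKM in Suz12-KO cells, and the WT columns held 0.030 and 0.083 RPKM. The lines thus differed in more than their Suz12 label, and genotype and line background cannot be told apart.

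The 2 markers of retinoid exposure went from near 0 to a high level. Cyp26a1 (chr19:37697798-37701536, GRCm38), the cytochrome P450 that inactivates retinoic acid, stood at 0.0622 RPKM (3 reads) at 0 h and 64.6 RPKM (3024 reads) at 24 h. Stra8 (chr6:34920163-34939344), a retinoid-induced gene needed for meiotic entry in germ cells, stood at 0.327 RPKM (16 reads) and 43.7 RPKM (2077 reads). Defining markers of embryonic stem cells were present at 0 h, with Pou5f1 at 137 RPKM, Nanog at 77.0, Esrrb at 36.6, Zfp42 at 27.1 and Sox2 at 25.3 RPKM. Defining markers of fibroblasts, mesoderm and trophoblast were near 0. None of 20 fibroblast genes reached 1 RPKM, their summed level being 1.12 RPKM at 0 h and 2.98 at 24 h. The mesoderm markers T, Tbx6 and Mesp1 stayed at or under 0.131 RPKM in both columns, and the trophoblast markers Cdx2, Elf5, Hand1 and Gata3 at or under 0.151 RPKM. Among neural and primitive endoderm markers, Sox1, Pax6 and Gata6 passed 1 RPKM at 24 h, as given below. Wider lists were not at 0 either. Summed over whole lists, kept or not, 29 mesoderm genes stood at 1.84 RPKM at 0 h and 10.6 at 24 h, 38 neural genes at 54.5 and 45.5 (Stmn2 at 28.5 and 8.60), 22 visceral endoderm genes at 38.8 and 52.9 (Apoe at 30.3 and 20.8), and 20 trophoblast genes at 19.5 and 85.6 RPKM, of which Peg10 alone made 8.95 and 55.8 RPKM. Because these are bulk samples, fewer cells of a type and less RNA per cell cannot be told apart.

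The 0 h column held 27205523 reads and the 24 h column 26390381. Much of each column was assigned to a single gene, Gm42418, annotated as lincRNA, at 63.0% of the reads at 0 h and 56.5% at 24 h. That class is the annotation's, and which RNA these reads came from was not tested. Another single gene, Lars2, took 5.01% of the reads at 0 h and 5.14% at 24 h. Protein-coding genes took 23.1% of the reads at 0 h and 30.4% at 24 h in Suz12-KO cells, and 21.04% and 24.8% in WT cells. That difference in composition moved the median kept gene to 0.42 above 0 on the log2 scale of the deposited values. Fold changes below are therefore ratios after each column was divided by its median-of-ratios factor, which removed 0.52 log2 units between the columns and left the median kept gene at -0.02. RPKM levels are printed as deposited. A log2 change is that of scaled RPKM plus 0.5, which understates the change of low genes, and "higher" and "lower" in the counts mean at least 2-fold on that scale.

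On this scale 610 of 9460 genes (6.45%) were higher at 24 h and 569 (6.01%) were lower. Where a list count below has no share beside it, these 2 shares are its background. On the deposited values without scaling the split was 1379 higher and 249 lower. Among protein-coding genes alone, 568 of 8672 (6.55%) were higher and 396 (4.57%) lower. Changes of at least 4-fold were seen in 91 protein-coding genes upward and 79 downward, and changes of at least 16-fold in 8 upward and 1 downward. The genes that were higher started low. Their median level was 0.531 RPKM at 0 h and 3.47 RPKM at 24 h, and 377 of the 568 were under 1 RPKM at 0 h, 15 of them with no read. Of all 8672 kept protein-coding genes 1438 were under 1 RPKM at 0 h. Such genes entered through the 24 h column alone, so this is a description. The same holds for every list member below that was under 1 RPKM at 0 h. Genes that were lower had a median of 4.96 RPKM at 0 h and 1.89 RPKM at 24 h, and 130 of the 396 were under 1 RPKM at 24 h.

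**Figure D1:**
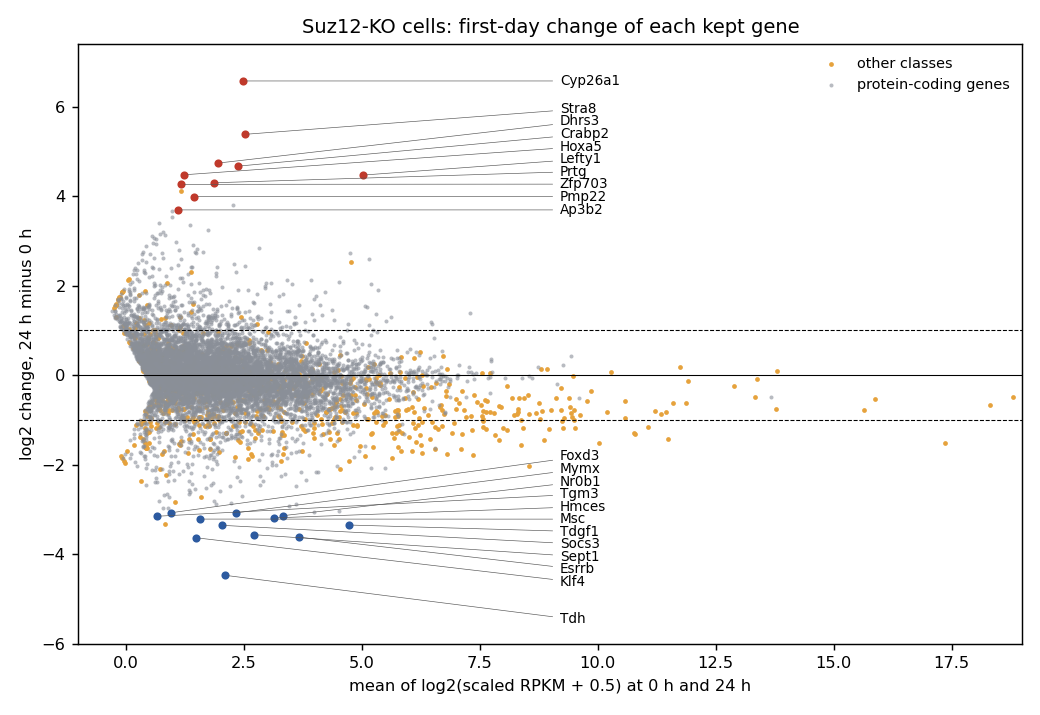
Each point is a kept gene, with its mean log2(scaled RPKM + 0.5) over the 2 columns on the x axis and its log2 change from 0 h to 24 h in Suz12-KO cells on the y axis; orange points are genes that are not protein-coding, and dashed lines mark 2-fold. Cyp26a1 stands highest at 6.57 and Tdh lowest at -4.47, and the abundant genes that are not protein-coding lie mostly under 0.

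The retinoid pathway itself was at the head of the higher genes. Of 25 genes of retinoid metabolism, 9 reached 1 RPKM, and 5 of these were higher and none lower, with a median log2 change of 2.57. Cyp26a1 was 727-fold higher (95% counting interval 248 to 3525). Dhrs3, the reductase that returns retinaldehyde to retinol, went from 0.213 RPKM (17 reads) to 23.5 RPKM (1814 reads), 76.9-fold (47.9 to 132). Crabp2, the binding protein that carries retinoic acid to its receptors in the nucleus, went from 0.445 to 30.8 RPKM, 48.4-fold (29.7 to 85.0). Stra6, the membrane receptor that takes up retinol, went from 0.0189 RPKM (3 reads) to 3.11 RPKM (479 reads), a ratio of 115 (39.1 to 560). Enzymes and carriers on both sides of the ligand, those that remove it and those that take up or carry it, were thus higher together. The other 4 kept genes, Dhrs4, Rdh11, Rdh14 and Adh5, lay between -0.36 and 0.16 on the log2 scale.

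Among 14 kept receptors and cofactors, 3 were higher and 1 lower. Rarb, the retinoic acid receptor whose own promoter holds the repeat shown above, went from 0.0363 RPKM (3 reads) to 4.75 RPKM (380 reads), a ratio of 91.3 (31.0 to 445). Rarg, the most abundant of the family at 0 h, went from 15.1 to 9.13 RPKM, 2.37-fold lower (2.19 to 2.57), and was within 2-fold on the deposited values. Rara lay in between, at 4.05 RPKM before and 8.83 RPKM after, a log2 change of 0.56. Rarb remained the least abundant of the 3 receptors at 24 h. Nrip1, a ligand-dependent corepressor, was higher at 0.176 and 1.52 RPKM, and so was Nr6a1, the germ cell nuclear factor that represses Pou5f1, at 3.35 and 11.1 RPKM.

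A wider list of retinoic acid response genes had 26 of 34 members kept, of which 21 were higher and none lower, with a median log2 change of 2.23. The list was drawn up from known targets, so its direction is not independent evidence. Stra8 was 93.6-fold higher (57.5 to 164). Zfp703, a zinc finger repressor, went from 1 read to 973 reads (0.0111 to 11.2 RPKM), a ratio of 701 with a counting interval of 126 to 27730. Tgm2, a transglutaminase gene known as an early retinoid target in other cells, stood at 1.94 and 2.22 RPKM, a log2 change of -0.26. Cdx1, a caudal homeobox gene, went from 1.43 to 5.46 RPKM (log2 change 1.20).

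**Figure D2:**
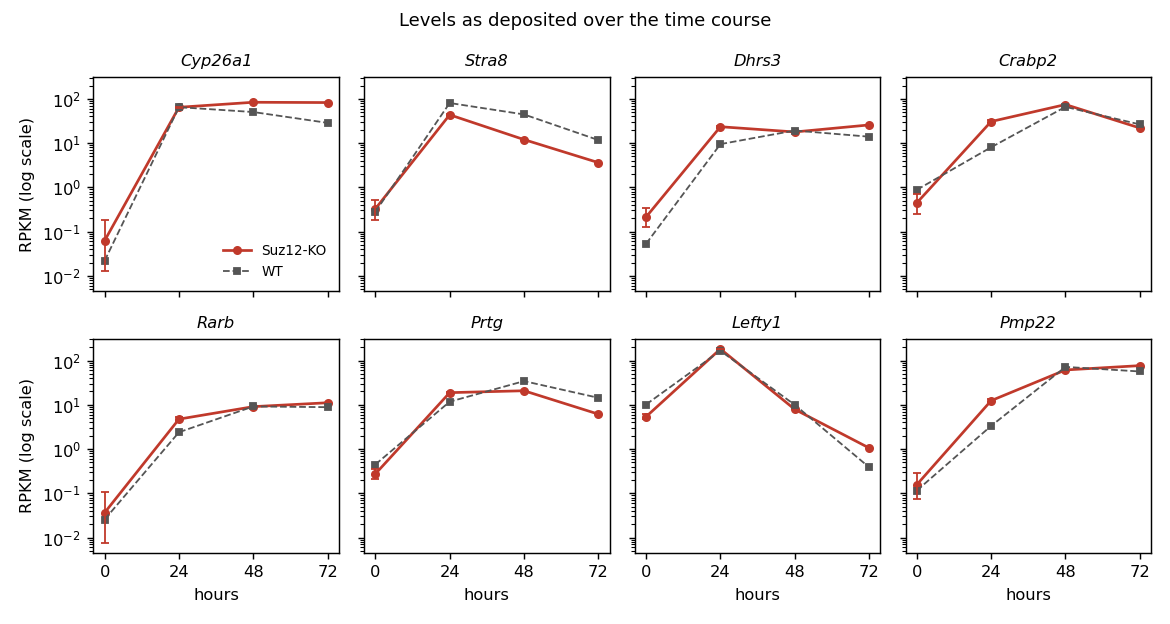
RPKM as deposited (log axis) at 0, 24, 48 and 72 h for 8 genes in Suz12-KO (red circles) and WT cells (grey squares); red bars are 95% counting intervals of the Suz12-KO columns at 0 and 24 h. Cyp26a1 in Suz12-KO cells is at 64.6 RPKM at 24 h and 82.6 at 72 h, whereas Lefty1 peaks at 183 at 24 h and is at 1.06 at 72 h.

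The later columns show which first-day levels lasted. Cyp26a1 stood at 83.9 and 82.6 RPKM at 48 and 72 h. Stra8 was back at 12 and then 3.62 RPKM. Pmp22, a myelin membrane protein gene that is also expressed in epithelia, went from 0.156 RPKM at 0 h to 12.4 at 24 h and on to 61.3 and 76.9 RPKM. Prtg, protogenin, an adhesion molecule of the early embryo, had its highest levels at 24 and 48 h, at 18.8 and 20.8 RPKM, after 0.273 RPKM at 0 h. Ap3b2, a neuronal adaptor subunit gene, was at 0.0818 RPKM at 0 h, 8.62 at 24 h and 0.956 at 72 h. A first-day peak (Stra8, Ap3b2, Lefty1), a plateau (Cyp26a1, Dhrs3) and a continued climb (Pmp22) were thus all seen among the 12 protein-coding genes with the largest change. All 24 genes at the extremes, 12 in each direction, carry the mark for a difference between 72 and 0 h in Suz12-KO cells in the authors' deposited table, as do 2689 of all 8672 kept protein-coding genes.

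The Hox genes went from near silence to a level that differed by cluster. Of 37 Hox genes in the table, 5 had any read at 0 h, 14 reads in all, and 31 had reads at 24 h, 3542 in all. Before treatment the summed Hox level was 0.236 RPKM in Suz12-KO cells against 0.290 RPKM in WT cells. At 24 h the sum was 53.2 RPKM in Suz12-KO and 26.7 RPKM in WT cells. These sums are as deposited. The log2 scaling factors of the 24 h columns were 0.253 in Suz12-KO and -0.046 in WT cells, so the gap is smaller after scaling. Reads at 24 h lay in the Hoxa cluster (1482) and the Hoxb cluster (1897), with 133 in Hoxc and 30 in Hoxd. The rule kept 10 Hox genes, and since each was kept through its 24 h value, their being higher is no separate result. Hoxa5 was the most abundant, at 12.7 RPKM (628 reads) after no read at 0 h, at least 151-fold higher against a floor of 3 reads. Hoxb2 reached 5.71 RPKM and Hoxb1 4.55 RPKM, both from no read. Hoxb1 was back at 0.224 RPKM by 72 h, while Hoxa5 stood at 13.8 RPKM. Hox genes lie close together and several overlap neighbours or antisense RNAs, and whether strand was used in counting is not given. Reads of genes such as Hoxa5, Hoxa4, Hoxc5, Hoxb2, Hoxb5 and Hoxb6 could therefore be shared with those they overlap.

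The partners with which Hox proteins bind DNA were higher alongside, in 5 of 9 kept cofactor genes. Meis1, a homeobox partner, went from 0.291 to 3.02 RPKM, Meis2 from 0.553 to 3.13 and Pbx2 from 4.84 to 16.4 RPKM. None of the 9 was lower.

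The pluripotency network moved the other way. All 20 genes of a naive pluripotency list were kept, and 18 were lower and none higher, with a median log2 change of -2.28, or -1.88 on the deposited values. Klf4 went from 7.87 to 0.360 RPKM, 31.2-fold lower (21.5 to 47.0), and Esrrb from 36.6 to 3.72 RPKM, 14.1-fold lower (12.9 to 15.3). Both are transcription factors of the naive state. Nr0b1, an orphan nuclear receptor that binds Pou5f1 protein, went from 24.4 to 3.44 RPKM, Tfcp2l1 from 23.6 to 5.6 and Prdm14 from 2.62 to 0.236 RPKM. The 2 that were not lower were Gbx2, at 7.32 and 15.8 RPKM (log2 change 0.56), and Pecam1, at 1.85 and 1.84 RPKM.

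Of 20 core pluripotency genes, 11 were lower and none higher, with a median log2 change of -1.14. The median was -0.65 on the deposited values. Tdh, threonine dehydrogenase, the mitochondrial enzyme on which mouse embryonic stem cells depend, had the lowest log2 change of any kept gene, at -4.47. Its level went from 16.4 RPKM (1170 reads) to 0.493 RPKM (34 reads), 47.7-fold lower (34.0 to 69.3). Nanog went from 77.0 to 25.7 RPKM, a log2 change of -2.07, and Pou5f1 from 137 to 63.5 RPKM, a log2 change of -1.62. Sox2 stood at 25.3 and 22.5 RPKM, a log2 change of -0.67, and so was within 2-fold. Lin28a (-0.20), Dppa2 (0.17) and Dppa5a (0.35) were also within 2-fold. Of these 3 central factors, Sox2 thus kept the largest part of its 0 h level and Nanog the smallest, and Pou5f1 was still the most abundant. By 72 h Pou5f1 stood at 1.35 RPKM, Nanog at 1.15 and Sox2 at 3.82 RPKM.

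**Figure D3:**
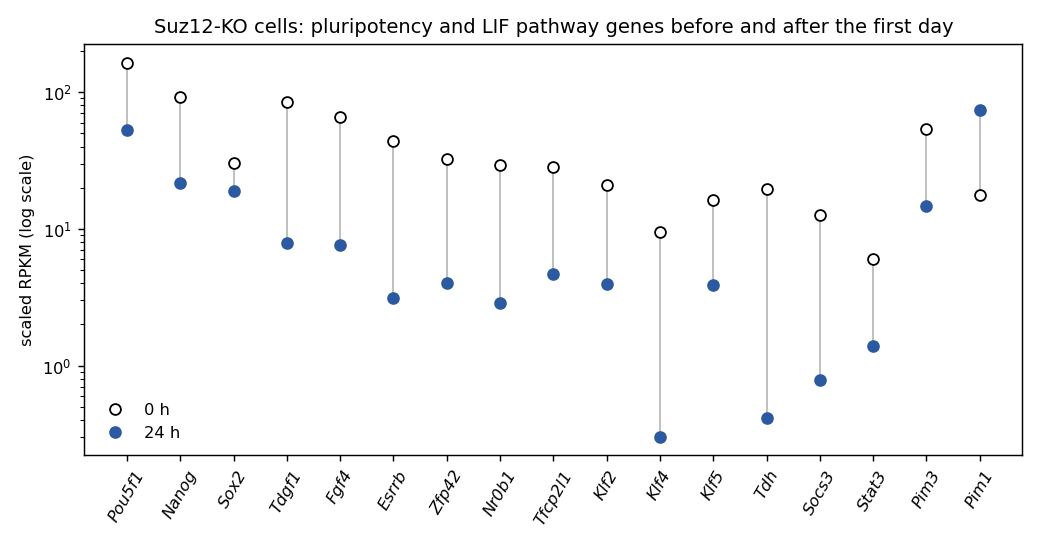
Scaled RPKM (log axis) at 0 h (open) and 24 h (filled) in Suz12-KO cells for 17 pluripotency and LIF pathway genes. All but 1 of the genes have the filled point below the open one, Sox2 by the shortest distance, and Pim1 has it above.

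LIF was withdrawn at 0 h, and 11 of 18 kept genes of the LIF and Stat3 pathway were lower and 1 higher, with a median log2 change of -1.36 (-0.96 on the deposited values). Socs3, the feedback inhibitor and direct Stat3 target, went from 10.5 to 0.931 RPKM, 16.1-fold lower (12.6 to 20.8). Lifr, the receptor, went from 3.73 to 1.34 RPKM and Stat3 itself from 4.99 to 1.65 RPKM. Il6st, the shared signalling receptor, was within 2-fold at 6.18 and 6.48 RPKM. Of the Pim kinases, Pim3 went from 44.5 to 17.5 RPKM, a log2 change of -1.83, while Pim1 went from 14.7 to 88.0 RPKM, a log2 change of 2.04. Pim1 was back at 13.4 RPKM at 48 h. Socs3 and Pim1, which both count as Stat3 targets, thus went in opposite directions.

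Nodal signalling, which patterns the epiblast, had 6 of 17 kept genes higher and 3 lower, beside 6.45% and 6.01% of all kept genes. Lefty1, a secreted Nodal antagonist, went from 5.37 RPKM (257 reads) to 183 RPKM (8496 reads), 23.8-fold (21 to 27.1). Nodal itself went from 6.28 to 20.4 RPKM. The co-receptor Tdgf1 (Cripto) moved against both, from 70.6 to 9.39 RPKM, 10.8-fold lower (9.77 to 11.9), and so did Inhbb, an activin subunit gene, from 3.22 to 0.142 RPKM. Ligand and antagonist were therefore higher while the co-receptor was lower. Lefty1 and Lefty2, and Tdgf1 and its pseudogene Tdgf1-ps1 (6.05 to 0.808 RPKM), are near-identical in part, so their reads could have been split in counting.

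Growth factor genes were mixed. Of 21 kept FGF and ERK genes 4 were higher and 7 lower, beside 6.45% and 6.01% of all kept genes. Fgf4, the autocrine factor of these cells, went from 54.5 to 9.03 RPKM, 8.63-fold lower (7.98 to 9.35). The feedback inhibitor Spry4 went from 12.7 to 3.32 RPKM, whereas the inhibitors Dusp6 and Il17rd were higher, at 20.2 and 75.5 RPKM and at 3.06 and 20.1 RPKM. Bmp4 went from 3.95 to 0.204 RPKM, 27.6-fold lower (15.5 to 54.2), and was at 2.14 and 2.63 RPKM at 48 and 72 h. Its readout genes did not move as one, with Id1 at 28.4 and 19.2 RPKM (log2 change -1.05, within 2-fold on the deposited values) and Id2 at 2.81 and 17.8 RPKM (1.99). In the Wnt list 6 of 17 kept genes were higher and 3 lower, beside the same shares of all kept genes. Those higher included Sp8 at 0.0328 and 4.37 RPKM and the antagonist Sfrp5 at 0.0967 and 3.89 RPKM. Those lower included the deacylase Notum at 2.79 and 0.582 RPKM.

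**Figure D4:**
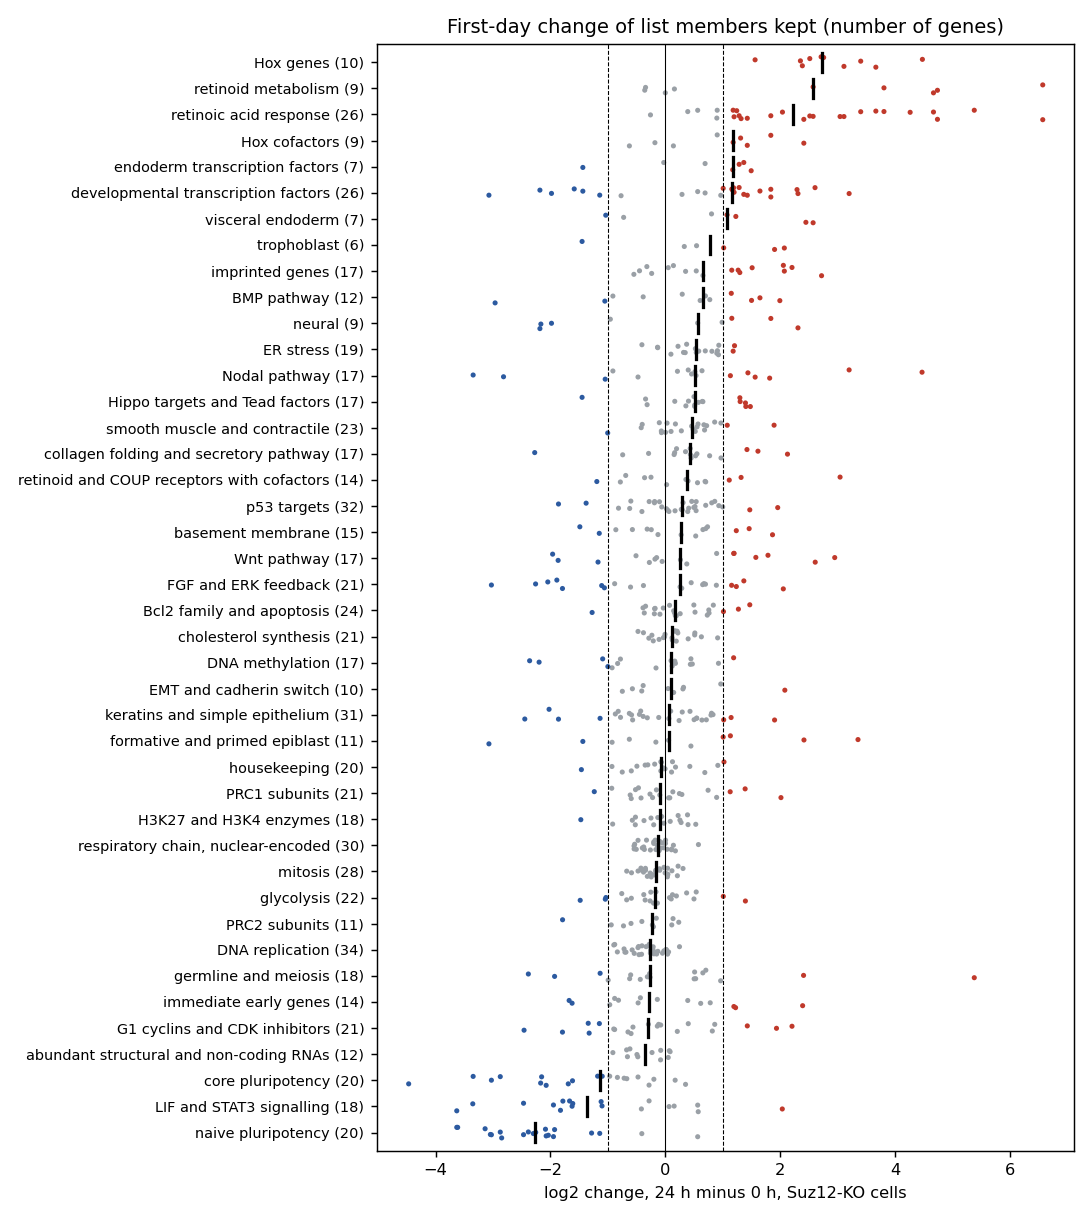
Log2 change from 0 h to 24 h in Suz12-KO cells of each kept member (points, number in brackets) of the 42 gene lists with at least 5 kept members; black bars are medians, dashed lines mark 2-fold, and lists are ordered by median. Hox genes, retinoid metabolism and retinoic acid response have medians above 2, and core pluripotency, LIF signalling and naive pluripotency lie under -1.

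Genes of later lineages were low, and some were above their starting level. Of 153 developmental transcription factors 26 were kept, with 15 higher and 6 lower, beside 6.45% and 6.01% of all kept genes. Each higher gene named in this paragraph was under 1 RPKM at 0 h and was kept through its 24 h value. Their being higher is therefore no separate result. A neural list of 38 genes had 9 kept, with 3 higher and 3 lower. Neural factors above their 0 h level included Sox1, at 0.319 and 3.17 RPKM, and Pax6, at 0.156 and 1.23 RPKM. Olig2, at 4.19 and 0.855 RPKM, and Stmn2, at 28.5 and 8.60 RPKM, were lower. Neurog2, a factor of committed neuronal precursors, had 1 read at 24 h. The endoderm factors Gata6 (0.253 and 1.57 RPKM), Foxa2 (0.0310 and 1.06 RPKM) and Foxq1 (0.171 and 1.77 RPKM) were higher, while Gata4 and Sox17 stayed under 1 RPKM, at 0.776 and 0.589 RPKM at 24 h. Wt1, a zinc finger factor of kidney and gonad, went from 0.166 to 4.48 RPKM. Foxd3, a repressor of the epiblast and neural crest, was lower, at 4.31 and 0.208 RPKM, and so was Otx2, at 1.43 and 0.379 RPKM. The formative and primed epiblast list had 4 of 11 kept genes higher and 2 lower, with Sall2 at 0.257 and 9.27 RPKM and Sox4 at 0.966 and 9.95 RPKM.

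Imprinted genes, which are expressed from 1 parental copy, had 8 of 17 kept genes higher and none lower. Mest, a growth-related hydrolase gene, went from 8.38 to 82.4 RPKM, 6.87-fold (6.42 to 7.37), Peg10 from 8.95 to 55.8 RPKM and Cdkn1c, a cyclin-dependent kinase inhibitor, from 1.05 to 9.07 RPKM. Grb10, Igf2r, Ndn, Nnat and Plagl1 were also higher. Of 18 kept germline genes 2 were higher, Stra8 and the meiotic cohesin gene Rec8 at 0.548 and 6.73 RPKM, and 3 were lower, beside 6.45% and 6.01% of all kept genes.

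Polycomb genes were 2-fold apart in 1 of 11 PRC2 and 4 of 21 PRC1 genes kept, beside 12.5% of all kept genes. Of 11 kept PRC2 genes none was higher and 1 lower, Eed, the subunit that reads the methyl mark, which went from 22.4 to 8.83 RPKM, 3.62-fold lower (3.27 to 4.02). Ezh2, the catalytic subunit, stood at 5.98 and 7.33 RPKM. Among 21 kept PRC1 genes 3 were higher, Yaf2 (0.275 and 3.40 RPKM), Cbx2 (0.535 and 2.97 RPKM) and Phc2 (0.859 and 3.40 RPKM). These 3 were under 1 RPKM at 0 h and were kept through their 24 h values, so their being higher is no separate result. L3mbtl2 was lower, at 9.86 and 5.64 RPKM, though within 2-fold on the deposited values. For DNA methylation, Tet1, the dioxygenase that oxidises methylcytosine, went from 9.66 to 2.21 RPKM and Zfp57, which guards imprints, from 18.1 to 5.17 RPKM.

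The proliferation programme was level on the scaled values. None of 34 kept DNA replication genes and none of 28 kept mitosis genes was 2-fold apart, with median log2 changes of -0.26 and -0.17 that turn to 0.24 and 0.33 on the deposited values. Ccnd2, a G1 cyclin, was higher, at 0.967 and 6.98 RPKM, and Mycn lower, at 13.7 and 3.06 RPKM, with 12.2 RPKM at 48 h. Slc2a1, the glucose transporter, went from 80.8 to 305 RPKM (log2 change 1.40) and was back at 93.0 RPKM at 48 h. Of 19 kept genes of endoplasmic reticulum stress 2 were higher, a share near the 6.45% of all kept genes, and these were the chaperone genes Hspa5 at 24.6 and 81.9 RPKM and Calr at 48.6 and 158 RPKM.

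Short and structural RNAs were more often lower than higher. Of 442 kept short RNAs 27 were higher and 136 lower, with a median log2 change of -0.75, against a background of 12.5% of all kept genes 2-fold apart in either direction. Their share of all reads was 2.94% at 0 h and 3.12% at 24 h in Suz12-KO cells, and 1.77% and 2.94% in WT cells. In the rRNA class, as annotated, 42 of 53 kept genes were lower. This class holds gene copies such as n-R5s64, whose reads could be shared in counting, so its entries may not be separate measurements. The share of reads of that class was 0.996% at 0 h and 0.939% at 24 h in Suz12-KO cells, and 0.724% and 1.06% in WT cells. Per the labels' protocols, the RNA was depleted of ribosomal RNA and small RNA was removed before fragmentation. Levels of these classes also depend on those steps, whose part was not tested.

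WT cells give the measure of how far the first day was shared. On the same 9460 genes, 413 (4.37%) were higher and 348 (3.68%) lower in WT cells, 761 (8.04%) in all. With the 1 RPKM rule applied to the WT columns instead, 396 of 8790 genes (4.51%) were higher and 384 (4.37%) lower, 780 (8.87%) in all. The Suz12-KO counts, 1179 of 9460 (12.5%), were larger, which was not tested. Of the 568 protein-coding genes higher in Suz12-KO cells, 561 had a WT log2 change above 0 and 277 were also at least 2-fold higher there, beside 4098 and 340 of all 8672 kept protein-coding genes. Of the 396 lower genes, 383 were below 0 in WT cells and 236 at least 2-fold lower, beside 4572 and 312 of all 8672. Over genes with at least 1 RPKM in any of the 4 columns, 279 protein-coding genes were higher in both lines, which is 48.9% of the 570 in Suz12-KO and 78.8% of the 354 in WT cells. For lower genes the 240 shared were 60.0% of 400 and 73.4% of 327. Pearson's r between the Suz12-KO and WT changes was 0.863 across 8818 protein-coding genes, a description over genes that share columns and depth. In all, 20 genes were at least 2-fold apart in opposite directions, none of them annotated as protein-coding. Most of the 20 were lower in Suz12-KO and higher in WT cells, while Mir27b, Mir23b and an unannotated gene went the other way. Of the 20, 4 had no annotation, and some had 5 reads or fewer in each of the 4 columns, such as Mir27b and Mir23b. Others had many reads, such as the short RNA Gm25360. It had 11898 and 6729 reads in Suz12-KO cells and 2770 and 8435 in WT cells.

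**Figure D5:**
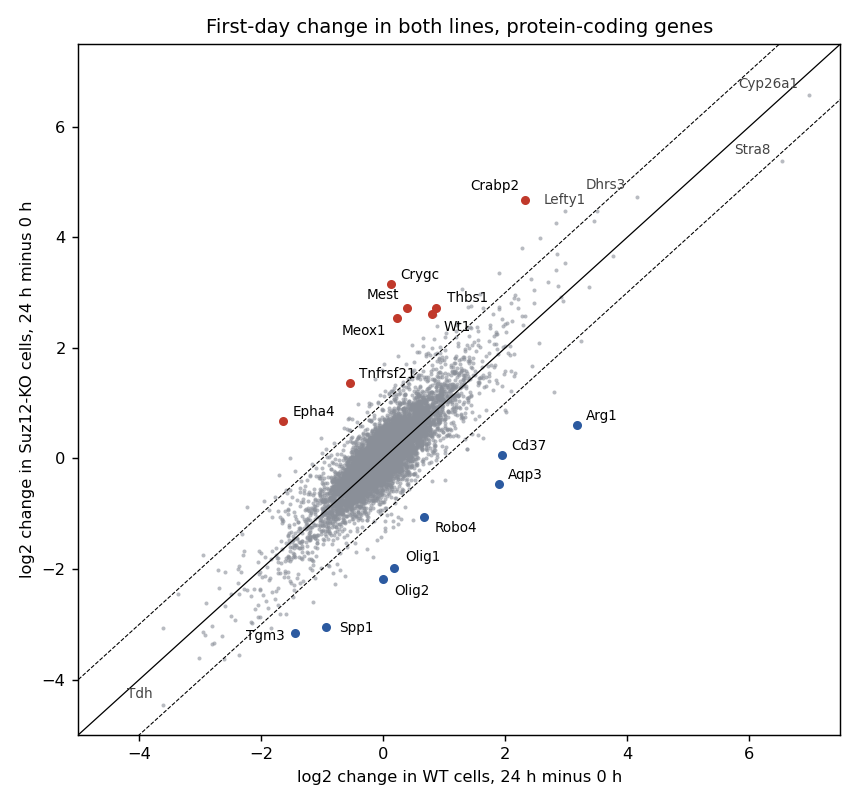
Each point is a protein-coding gene, with its log2 change from 0 h to 24 h in WT cells on the x axis and in Suz12-KO cells on the y axis; the solid line is equality and dashed lines are 1 log2 unit away. Cyp26a1 and Stra8 lie at the upper right in both lines, and the red and blue points are the 8 genes with the largest difference in each direction.

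Where the lines differed, the difference has no test. The Suz12-KO log2 change was at least 1 unit above the WT change in 160 of 9738 genes (1.64%) and at least 1 unit under it in 301 (3.09%), or in 92 and 55 genes when counted over protein-coding genes alone. Crabp2 had a log2 change of 4.67 in Suz12-KO and 2.32 in WT cells, where it went from 0.879 to 8.07 RPKM. Mest had 2.72 and 0.38, with 3.83 and 7.13 RPKM in WT cells. Crygc, a lens crystallin gene, was at 0.0468 RPKM (1 read) and 5.30 RPKM (110 reads) in Suz12-KO cells, while the WT columns held 0 and 0.0454 RPKM. Meox1, a homeobox gene of the somites, was at 0.0495 and 3.27 RPKM against 0.0869 and 0.224 RPKM in WT cells. Thbs1, a secreted matrix protein gene, had log2 changes of 2.73 and 0.86, and Wt1 of 2.61 and 0.81. Epha4, an ephrin receptor gene, was 1.91-fold higher in Suz12-KO cells, at 0.790 and 2.16 RPKM, while its WT values were 3.30 and 1.16 RPKM.

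In the other direction, several genes were already at a higher level in Suz12-KO cells at 0 h. Olig2 and Olig1, helix-loop-helix factors of the oligodendrocyte lineage, stood at 4.19 and 3.64 RPKM in Suz12-KO cells at 0 h and at 0.855 and 0.873 RPKM at 24 h. In WT cells Olig2 had no read at either time and Olig1 none at 0 h and 0.0657 RPKM at 24 h. Spp1, osteopontin, went from 37.7 to 6.0 RPKM in Suz12-KO cells, with 13.7 and 9.85 RPKM in the WT columns. Aqp3, a water and glycerol channel, stayed at 7.64 and 7.73 RPKM in Suz12-KO cells while the WT columns held 2.46 and 14.1 RPKM. Arg1, arginase, had no read at 0 h and 0.308 RPKM (12 reads) at 24 h in Suz12-KO cells, against 0.0262 and 4.21 RPKM in WT cells, and it stood at 7.48 RPKM in Suz12-KO cells at 48 h. As deposited, Stra8 at 24 h stood at 80.7 RPKM in WT and 43.7 RPKM in Suz12-KO cells, and Cyp26a1 at 65.0 and 64.6 RPKM. After scaling, the log2 change of both markers was smaller in Suz12-KO cells. It was 5.38 against 6.54 in WT cells for Stra8, and 6.57 against 6.99 for Cyp26a1.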

How the data were processed

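RNA depleted of ribosomal RNA was sequenced, per the labels' protocols. TopHat, featureCounts and DESeq2, without versions, and the build GRCm38 (mm10) are named in the submitters' processing notes. The deposited table gives RPKM, made by the authors, for 24452 genes by Ensembl release 72 IDs, with 1 column for each group of 2 samples. The sources used here do not say how samples were pooled. All 153803 values above 0 came out as whole reads within 0.01, with exon lengths from the annotation in 14150 genes and lengths inferred from the value steps in 10302. These reads gave exact 95% intervals (Poisson for a level, Clopper-Pearson for a ratio) and the floor of 3 reads. With 1 column per group no count test and no limma fit could be made, and none was run.

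Columns were divided by median-of-ratios factors (genes with at least 1 RPKM in any of the 8 columns), and 0.5 was added before log2. GENCODE M21 gave symbols, classes and positions, with 595 IDs unmatched. Python 3.11.15, numpy 2.4.6, pandas 2.3.3 and scipy 1.17.1 were used, and the steps were tested on simulated data. The members and 46 gene lists were chosen with earlier results of these data known. Genes were named by a rule: the 12 protein-coding genes with the largest and the 12 with the lowest change, the markers, the 3 largest absolute changes of each list, 5 non-coding genes with at least 20 reads, and the 8 largest differences from WT in each direction. Other list members named were chosen after their values were seen, and some genes that the rule names are not reported here. Alternatives were deposited RPKM, factors from protein-coding genes or from their share of reads, added values of 0.1 and 1, and other filters. G+C and CpG content were not compared, since under 80% of the called genes had a promoter window. Mitochondrially encoded mRNAs were not analysed here.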

Additional observations from a re-analysis of the deposited data

How the results depend on the processing

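RPKM as deposited gave 1379 higher and 249 lower genes, against 610 and 569 on scaled values, and the medians of the core pluripotency and LIF lists, at -0.65 and -0.96, came within 2-fold. The medians of 12 of 44 lists, all between -0.36 and 0 on scaled values, were above 0 as deposited. Factors from protein-coding genes (588 and 601) or from their share of reads (635 and 541) changed these counts little. Adding 1 before log2 left 363 genes higher and 92 above the WT change, and adding 0.1 gave 281 above it. Requiring 5 RPKM left 217 higher, 310 lower, 49 above and 180 under the WT change. With no filter 313 genes were above and 488 under the WT change, and with protein-coding genes only 92 and 55. Counting intervals wholly beyond 2-fold were met by 573 higher and 417 lower genes. No named gene or list changed direction past 2-fold under these alternatives. Tpx2, Aqp3 and Suz12, all within 2-fold, changed the sign of their log2 change on deposited values, to 0.00, 0.02 and 0.21. No paired analysis was possible because each group is 1 pooled column, and leaving out a replicate was not run for the same reason. The counting interval was not applied to the difference between lines. Levels of 1 to 3 reads at 0 h limit the ratios of Cyp26a1, Zfp703, Rarb and Stra6.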
